A study of Zea mays with 6 samples.

Results

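Transcript levels of 4 maize genes that make, move and respond to auxin where axillary meristems form were followed in young ears of 3 genotypes. The genes were bif2 (Zm00001d031068), ba1 (Zm00001d042989), vt2 (Zm00001d008700) and PIN1a (Zm00001d044812). They were chosen for their function, by a rule that uses no measured value but was written with earlier results of these data known, and are 4 of the 45578 genes in the deposited table of read counts. The table gives these genes by identifier only. Their names come from the rule that chose them and were not checked against sequence, and the reference gene table used here holds no identifiers of this kind. The pairing of vt2 with Zm00001d008700 is the least certain, and every vt2 value below is that of this identifier.

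The ears were at most 0.5 cm long and came from wild type, from a line made by CRISPR editing and labelled as an RHW1 knockout (rhw1-1), and from 1 line labelled as overexpressing RHW1 (OE#1). Each genotype had 2 RNA sequencing libraries, 6 in all, and the tissue is labelled as ear, of which axillary meristems are only part. The labels name neither the promoter of the overexpression line nor the inbred background nor the age of the plants, and they do not state if replicate libraries stem from different plants. The p-values below therefore rest on the spread between replicate libraries, which may be technical. That spread was mostly taken from all genes together, with 3 residual and 33.2 prior degrees of freedom, and less from each gene's own libraries. RHW1, named in the title for a pathway that sets husk leaf width, was not analysed here, so the genotype labels were not checked against it. Each modified genotype was 1 line, so an effect of RHW1 cannot be told apart from other differences between the lines or their ears.

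Auxin marks the places on the flank of an inflorescence meristem where new axillary meristems arise, and these go on to form the spikelets and so the kernels of the ear. It is made from tryptophan in a pathway whose first step uses tryptophan aminotransferases, and it is moved from cell to cell by efflux carriers of the PIN family, whose placing in the membrane depends on phosphorylation. vt2 encodes a tryptophan aminotransferase related to Arabidopsis TAA1, and vanishing tassel2 mutants have barren inflorescences. PIN1a encodes an auxin efflux carrier. bif2 encodes a serine/threonine protein kinase, the maize counterpart of Arabidopsis PINOID, which is known to phosphorylate ZmPIN1a and BA1 in vitro. ba1 encodes a basic helix-loop-helix transcription factor needed to start axillary meristems, and barren stalk1 mutants lack ears.

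The synthesis gene vt2 and the transport gene PIN1a had lower transcript levels in the overexpression line. Relative to wild type, PIN1a fell by 24.6% and vt2 fell by 20.8%. Other genes of auxin synthesis and transport were not analysed here. The PIN1a call held in all 14 alternative analyses, whereas that of vt2 was lost in 4 of 14 and its log2 change shrank from -0.337 to -0.195 without overexpression replicate 1. The knockout stood close to wild type for both. The kinase transcript bif2 did not pass the test in any comparison, and its counts were too low for changes of this size to be seen. The transcription factor ba1 was at or near 0 reads in every library. Total counts were 21094445 to 23999698 reads per library, and levels are given as CPM, counts scaled to a common library size with TMM factors (0.991 to 1.01), which are comparable between libraries of 1 gene but not between genes, since transcript length is not taken into account. In bulk ear tissue, fewer cells of a type and less RNA per cell cannot be told apart.

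**Figure D1:**
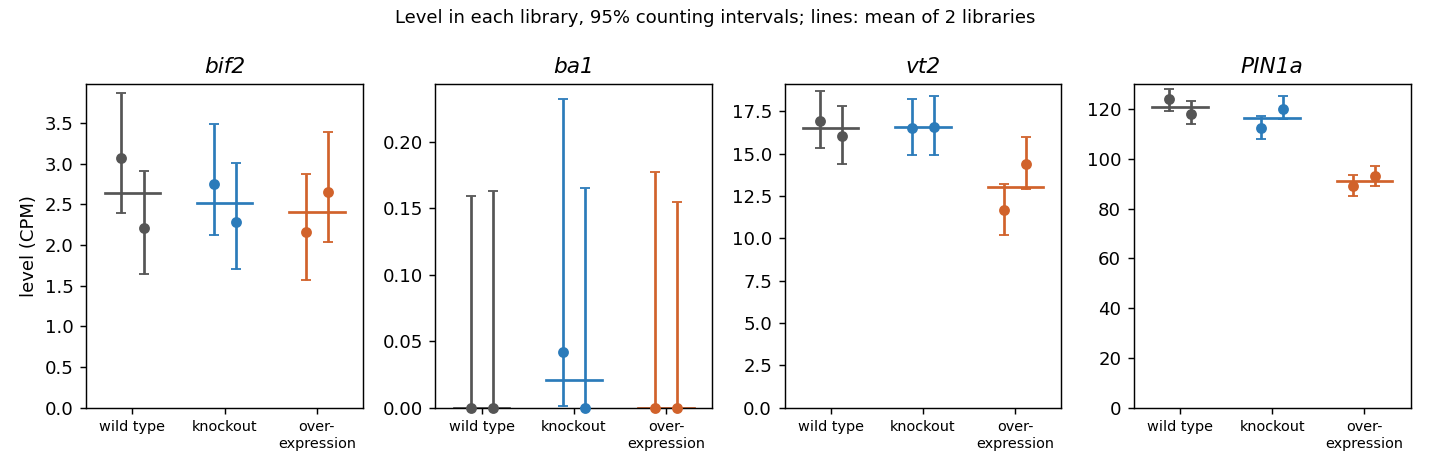
Level of each gene in CPM (vertical axis, its own range for each gene, starting at 0) in the 2 libraries of wild type, knockout and overexpression. Points are libraries, whiskers are exact 95% Poisson counting intervals and lines are means of 2 libraries. Both overexpression libraries lie below the other 4 for vt2 and PIN1a, the genotypes overlap for bif2, and ba1 has 1 read in 1 library.

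The synthesis gene vt2 was measured at 16.9 and 16.0 CPM in the wild-type libraries (392 and 363 reads), at 16.5 and 16.6 CPM in those of the knockout (397 and 370 reads), and at 11.6 and 14.4 CPM in those of overexpression (243 and 342 reads). Both overexpression libraries were thus below the other 4, but they also lay further apart than the pairs of the other genotypes, by 1.24-fold against 1.06-fold in wild type. The exact 95% counting interval of overexpression replicate 2, 12.9 to 16.0 CPM, overlapped those of wild type, which began at 15.3 and 14.4 CPM, and of the knockout, which began at 14.9 CPM in both libraries. That of overexpression replicate 1, 10.2 to 13.2 CPM, lay below those of the wild-type and knockout libraries. Counting intervals and floors cover counting error only. The order of the means was knockout at 16.56 ± 0.0483 CPM, wild type at 16.48 ± 0.641 CPM and overexpression at 13.0 ± 1.94 CPM (SD, n = 2), and the first pair of neighbours did not differ beyond its spread.

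The transport gene PIN1a was measured at 123.8 and 118.1 CPM in the wild-type libraries (2865 and 2676 reads), at 112.4 and 120.1 CPM in those of the knockout (2701 and 2679 reads), and at 89.2 and 93.1 CPM in those of overexpression (1862 and 2213 reads). The overexpression libraries were again below all others, and here the replicates of each genotype lay close, within 1.04-fold to 1.07-fold of each other. Wild type and knockout overlapped. The order of the means was wild type at 120.9 ± 3.97 CPM, knockout at 116.3 ± 5.46 CPM and overexpression at 91.1 ± 2.76 CPM (SD, n = 2), with wild type and knockout not differing beyond their spread. The counting error of a PIN1a value was 1.87% to 2.32%, so this gene was the most precisely measured of the 4. PIN1a belongs to a family of related carriers, and the sources used here do not say how reads shared between copies were counted.

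The kinase gene bif2 was measured at 3.07 and 2.21 CPM in the wild-type libraries (71 and 50 reads), at 2.75 and 2.29 CPM in those of the knockout (66 and 51 reads), and at 2.16 and 2.65 CPM in those of overexpression (45 and 63 reads). All 3 genotypes overlapped, and both knockout libraries lay between the wild-type pair. Its means were 2.64 ± 0.608 CPM for wild type, 2.52 ± 0.325 CPM for the knockout and 2.40 ± 0.35 CPM for overexpression (SD, n = 2), and no neighbours in that order differed beyond their spread. The counting error of a single bif2 value was 11.9% to 14.9%.

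The transcription factor gene ba1 had 1 read in knockout replicate 1 and 0 reads in each of the other 5 libraries, out of 136860801 reads in all. A count of 0 allows up to 3 reads, which is 0.126 to 0.144 CPM in those 5 libraries. The two-sided 95% counting intervals, drawn as whiskers in the plot of levels, reach 0.155 to 0.177 CPM there. The single read had an exact 95% counting interval of up to 0.232 CPM. No genotype had more reads than this floor of 3, so no fold change is given, and a difference between genotypes was not detectable at this depth. The gene did not pass the low-count filter, so 3 of the 4 genes were tested. Of the 4 genes, which are all known from young inflorescences, 3 were thus detected in every library and ba1 was not. Whether Zm00001d042989 is the right identifier for ba1 was not tested.

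The comparison of overexpression with wild type asked whether these transcripts differ in the line labelled as overexpressing RHW1. Both vt2 and PIN1a fell. PIN1a fell by 24.6%, or -0.41 on the log2 scale (SE 0.0452, 95% interval -0.50 to -0.32, adjusted p = 4.77e-09, edgeR quasi-likelihood test with Benjamini-Hochberg adjustment over all tested genes). vt2 fell by 20.8%, or -0.34 on the log2 scale (SE 0.117, 95% interval -0.575 to -0.099, adjusted p = 0.0277, edgeR). bif2 differed by -0.13 on the log2 scale (SE 0.283, adjusted p = 0.776, edgeR), and its 95% interval ran from 0.613-fold to 1.36-fold, which includes changes as large as those of vt2 and PIN1a. The sign of this bif2 difference changed without wild type replicate 1 or without overexpression replicate 1, to 0.127 and 0.007 on the log2 scale. Of the 3 tested genes, 2 were called lower and 0 higher, where 13.9% of all 22947 tested genes were called lower and 29.2% were called in either direction. Both overexpression libraries lay below both wild-type libraries in 31.8% of all tested genes, so that feature of vt2 and PIN1a was common.

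The share called depended on expression level. Tested genes were divided by average level into 4 groups of equal size. PIN1a was in the highest, in which 52.1% of genes were called in this comparison and 21.4% were called lower. vt2 was in the group second from the bottom, in which 22.4% were called and 13.2% called lower, and bif2 in the lowest, in which 10% were called. A smaller p than that of PIN1a was found for 1.7% of all tested genes, and for 24.7% in the case of vt2. Both falls, -0.408 for PIN1a and -0.337 for vt2 on the log2 scale, were larger than the median size of all called changes in either direction, 0.304. Neither reached -0.421, under which 10% of all tested genes lay. These 2 yardsticks are over all expression levels, and sizes were not compared within the expression groups. The median log2 fold change of the 3 tested genes was -0.337, beside -0.005 over all tested genes.

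**Figure D2:**
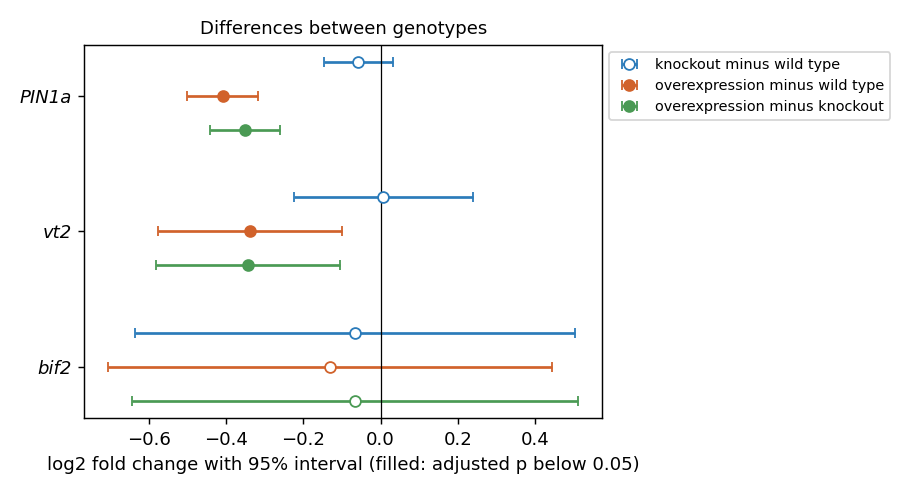
Log2 fold change (horizontal axis) of PIN1a, vt2 and bif2 in the 3 comparisons, with 95% intervals from the edgeR fit. Filled points have an adjusted p below 0.05: PIN1a and vt2 are lower in overexpression than in either other genotype, at -0.34 to -0.41, while all bif2 intervals include 0.

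The call of vt2 was less firm than that of PIN1a. Without overexpression replicate 1, the lower of that pair, the log2 fold change of vt2 against wild type was -0.195 and the call was lost (adjusted p = 0.357, edgeR). It was also lost at log2 fold changes nearer to the reported -0.337: -0.295 without wild type replicate 1 (adjusted p = 0.15, edgeR), -0.374 without wild type replicate 2 (adjusted p = 0.0585, edgeR) and -0.337 in DESeq2 (adjusted p = 0.0949). Over 14 alternatives its adjusted p ran between 0.00774 and 0.357 (edgeR, DESeq2 and limma-voom). PIN1a kept its call in all 14, with log2 fold changes of -0.44 to -0.373.

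**Figure D3:**
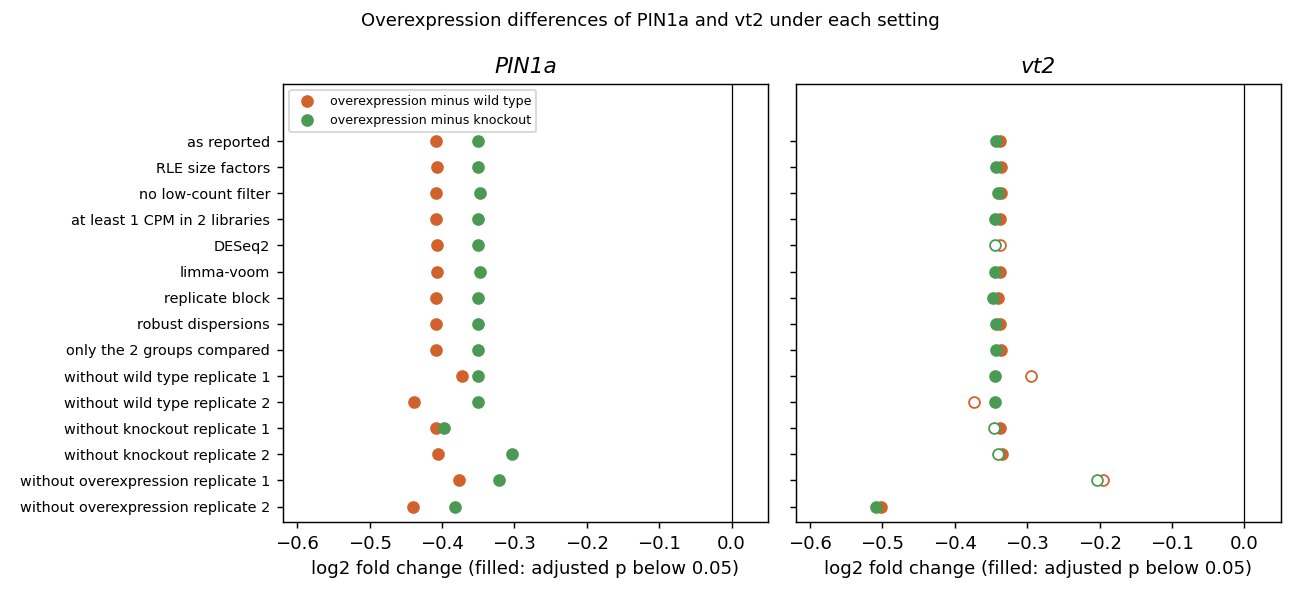
Log2 fold change (horizontal axis) of PIN1a and vt2 in the overexpression line against wild type and against the knockout, under each setting of the analysis (vertical axis). Filled points have an adjusted p below 0.05: every PIN1a point is filled, and vt2 is open in DESeq2 and when certain libraries are left out, with its smallest change, -0.195, without overexpression replicate 1.

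The comparison of the knockout with wild type asked whether the same transcripts differ in the line labelled as an RHW1 knockout. None of the 3 tested genes passed the test with edgeR, DESeq2 or limma-voom, and 0 of 3 had an unadjusted p under 0.05 in any of these tools. DESeq2 could not call bif2 here, since it gave it no adjusted p. In the whole table, 8.52% of tested genes were called in this comparison. The share was 20% in the expression group of PIN1a, 4.55% in that of vt2 and 1.71% in that of bif2. PIN1a differed by -0.06 on the log2 scale (SE 0.0439, adjusted p = 0.497, edgeR), with a 95% interval of 0.903-fold to 1.02-fold. vt2 differed by 0.01 on the log2 scale (SE 0.114, adjusted p = 0.984, edgeR), with an interval of 0.856-fold to 1.18-fold. bif2 differed by -0.07 on the log2 scale (SE 0.281, adjusted p = 0.933, edgeR), with an interval of 0.644-fold to 1.42-fold. For PIN1a and vt2 the intervals thus left out falls of the size seen in overexpression, to 0.754-fold and 0.792-fold, whereas the interval of bif2 did not. For vt2 this rests on overexpression replicate 1: without it the overexpression change was -0.195 on the log2 scale, which lies inside the knockout interval, whose lower end is -0.225. This comparison and the preceding one share the wild-type libraries.

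The direct comparison of overexpression with the knockout set the labelled gain of RHW1 against its loss. PIN1a fell by 21.6% from knockout to overexpression, or -0.35 on the log2 scale (SE 0.0453, 95% interval -0.442 to -0.259, adjusted p = 1.45e-07, edgeR). vt2 fell by 21.2%, or -0.34 on the log2 scale (SE 0.117, 95% interval -0.581 to -0.106, adjusted p = 0.0265, edgeR). bif2 differed by -0.07 on the log2 scale (SE 0.284, adjusted p = 0.894, edgeR), with an interval of 0.641-fold to 1.43-fold. Of the 3 tested genes 2 were called lower and 0 higher, where 12.6% of all tested genes were called lower and 26.7% were called in either direction. In the expression group of PIN1a, 45.9% of genes were called and 19.4% were called lower. In that of vt2 these shares were 21.9% and 11.7%, and in that of bif2 they were 9.85% and 4.86%. In 30.4% of all tested genes both overexpression libraries lay below both knockout libraries. The same overexpression libraries enter this comparison and that with wild type, so the pair of results is not independent. The vt2 call was lost at nearly the same log2 fold change in DESeq2 (-0.345, adjusted p = 0.0932) and without knockout replicate 1 or 2 (-0.346 and -0.341, edgeR adjusted p = 0.0901 and 0.0829). It was lost at a smaller one, -0.204, without overexpression replicate 1 (edgeR adjusted p = 0.343). Over 14 alternatives its adjusted p ran between 0.00784 and 0.343 (edgeR, DESeq2 and limma-voom).

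**Figure D4:**
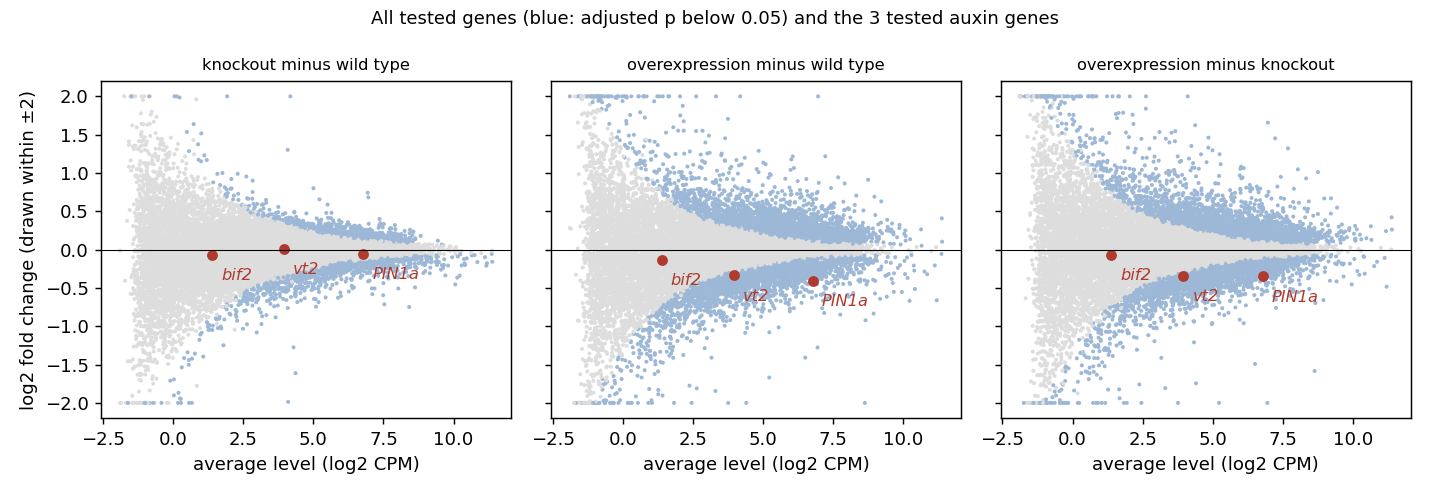
Log2 fold change (vertical axis, drawn within 2 units either side of 0) against average level in log2 CPM (horizontal axis) for all 22947 tested genes in the 3 comparisons, with called genes in blue and PIN1a, vt2 and bif2 in red. PIN1a and vt2 lie among the lower called genes in both comparisons with overexpression, and bif2 lies in the wide uncalled range of weakly expressed genes.

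Over the 6 libraries, vt2 and PIN1a followed each other more closely than either followed bif2. Likeness was measured as the root mean square difference of log2 CPM after each gene was centred on its own mean, so that 0 means the same pattern. It was 0.0803 between vt2 and PIN1a, 0.182 between bif2 and vt2, and 0.214 between bif2 and PIN1a. Lower counts alone make such a difference larger, and bif2 had the lowest counts of the 3. Among the 19676 genes whose average log2 CPM reached 1, PIN1a ranked 162 in likeness to vt2, and vt2 ranked 512 in likeness to PIN1a, so many genes shared this pattern. A difference under 0.1 was found for 1137 genes with PIN1a, for 510 with vt2 and for 50 with bif2.

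The gene most like PIN1a was Zm00001d030557, at a root mean square difference of 0.0268 over 6 libraries. It stood at 87.2 and 85.0 CPM in the wild-type libraries, at 82.1 and 84.6 CPM in those of the knockout and at 66.1 and 67.6 CPM in overexpression. The gene most like vt2 was Zm00001d021203, at 0.0281, with 20.1 and 19.7 CPM in the wild-type libraries, 19.9 and 20.7 CPM in those of the knockout and 14.5 and 17.1 CPM in overexpression. Both thus had their lowest libraries in overexpression, with replicate 1 the lower, which follows from how these genes were chosen. The gene most like bif2 was Zm00001d032116, at 0.0357, with 19.4 and 15.1 CPM in the wild-type libraries, 18.0 and 14.5 CPM in those of the knockout and 14.0 and 17.2 CPM in overexpression. Its replicates differed within each genotype as those of bif2 did, and its genotypes overlapped, which again follows from the choice. The sources used here do not pair these identifiers with names.

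Auxin response is also set by microRNAs, and these loci are named in the table. The families miR160 and miR167 act on transcripts of auxin response factors, miR390 directs the small RNAs that act on others of them, miR393 acts on the auxin receptors, and miR164 acts on NAC genes of organ boundaries. Of 27 precursor loci of these 5 families, 19 had no read in any library, and 2, both of miR160, had enough reads to be tested. The other loci had at most 5 reads in a library. The reads are from precursor transcripts and not from mature microRNAs.

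The precursor zma-MIR160b was covered by 27 and 19 reads in the wild-type libraries, 37 and 14 in the knockout, and 17 and 20 in overexpression. The knockout pair enclosed all the other libraries in CPM, 0.628 to 1.54. The precursor zma-MIR160d was covered by 7 and 6 reads in the wild-type libraries, 8 and 17 in the knockout, and 13 and 9 in overexpression. Neither passed the test in any comparison: 0 of 2 were called and 0 of 2 had an unadjusted p under 0.05 with edgeR, DESeq2 or limma-voom. DESeq2 could not call zma-MIR160d in any comparison, nor zma-MIR160b in the knockout, since it gave them no adjusted p there. The 95% interval of the overexpression change against wild type was 0.412-fold to 1.66-fold for zma-MIR160b and 0.625-fold to 4.8-fold for zma-MIR160d, so changes of 1.5-fold could not be seen at these counts.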

How the data were processed

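RNA from young ears was sequenced in 6 libraries, 2 per genotype. The authors deposited raw read counts per gene, without normalization, judged from their whole numbers and differing totals. Per the submitters' processing notes, the tools included StringTie, HTSeq, HISAT2 2.1.0, Trimmomatic 0.35 and edgeR 3.32.1, with no roles stated. Genome build, annotation and strand use are not given in these sources. All 6 columns were used and 0 were left out. Genes were filtered with filterByExpr (minimum count 10), scaled by TMM and tested with edgeR 4.0.16 (R 4.3.3) in 1 quasi-likelihood fit of 3 group means. The fit had 3 residual and 33.2 prior degrees of freedom, so each gene's spread was mostly that of all genes. P-values were adjusted by Benjamini-Hochberg over 22947 genes and called below 0.05. A standard error is the log2 fold change over the root of F. The calculation was run on simulated counts drawn with the spread that the fit gave to genes of like level. That run cannot test whether this spread holds for a single gene. The 4 genes and the microRNA list were chosen with earlier results of these data known. The text names all 4, the tested microRNA loci and the nearest gene of each tested member (log2 CPM, prior count 2). Other auxin genes were not analysed here. Alternatives were RLE, other low-count filters, DESeq2 1.42.0, limma-voom (limma 3.58.1), robust dispersions, fits of each pair of genotypes alone, a block for the replicate number, and omission of each library, where a lone library was taken to vary as the rest did. No batch or date is labelled.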

Additional observations from a re-analysis of the deposited data

How the results depend on the processing

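Of 125 values of bif2, vt2 and PIN1a over the alternatives, 110 kept direction and call; the rest are given here. DESeq2 called 1 of the 4 genes in place of 2 against wild type and against the knockout, since vt2 lost its call at log2 fold changes of -0.337 and -0.345. Leaving out 1 library gave 1 to 2 called genes in both comparisons with overexpression, with vt2 at -0.502 to -0.195 against wild type and -0.509 to -0.204 against the knockout. Of the uncalled values, PIN1a for knockout against wild type kept its sign (-0.103 to -0.01), and others changed sign when certain libraries were left out: bif2 ranged from -0.279 to 0.193 for knockout against wild type, from -0.345 to 0.127 for overexpression against wild type and from -0.226 to 0.075 for overexpression against knockout, and vt2 from -0.03 to 0.049 for knockout against wild type. The same held for zma-MIR160b, which ranged from -0.672 to 0.618 for knockout against wild type and from -0.892 to 0.396 for overexpression against knockout, and for zma-MIR160d, from -0.615 to 0.566 in the latter. The labels do not state that same-numbered libraries are pairs, so the numbers were not taken as pairs. Deviations from group means in same-numbered libraries had correlations of -0.0139 to 0.00772. All tested genes counted alike there, weak ones included, so a shared batch could be missed. With the replicate block PIN1a and vt2 were at -0.409 and -0.34 against wild type, and it changed no call of the 3 tested genes. Over all genes, DESeq2 called 986 in place of 1954 in the knockout, 4455 in place of 6698 in overexpression and 3946 in place of 6120 between the lines, and without 1 library the knockout count was 909 to 2129. DESeq2 gave bif2 no adjusted p in the knockout, nor zma-MIR160d in any comparison or zma-MIR160b in the knockout. Without a low-count filter ba1 was tested on its single read and had adjusted p of 0.744 to 1 (edgeR). Depth limits bif2, ba1 and the microRNA loci.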
